A study of Homo sapiens with 30 samples.

Results

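Gene expression at 10 cGy was set against 5 cGy, the middle of 5 radiation doses, in the human lymphoblastoid lines GM15036 and GM15510. The arrays whose titles gave 10 cGy or 5 cGy were taken, which made 12 of the 30 arrays in the series: 3 arrays of GM15036 and 3 of GM15510 at 10 cGy, and 3 arrays of GM15036 and 3 of GM15510 at 5 cGy. The arrays at 1, 2.5 and 7.5 cGy were not compared. They entered the estimate of the spread, the common level for scaling, the choice of probe sets and the dose courses. Lymphoblastoid lines grow from B cells that Epstein-Barr virus has immortalised. All groups were suspension cultures in MEM and serum, exposed to a caesium 137 source and measured as total RNA on an Affymetrix 3′ expression array, and no other agent was named. No unirradiated group was analysed here, and the sources used here do not give the time between exposure and RNA extraction. Doses follow the sample labels, which are in cGy, whereas the design text has Gy for identical numbers. The labels do not say whether a group's 3 arrays had separate cultures, so a p-value covers the spread between arrays alone, which may be technical.

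Ionizing radiation breaks DNA, and the ATM and p53 pathways then switch on genes of cell cycle arrest, repair and apoptosis. NF-kB, AP-1 factors such as JUND and other immediate-early genes are also known to respond to radiation in B cells. Genes of mitosis share promoter elements through which p53 and the cell cycle repress them, and genes of glycolysis are driven by hypoxia-inducible factors.

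The arrays differed in brightness, the trimmed mean of their signal before scaling, and the dose difference ran in opposite directions in the lines. GM15036 arrays had brightness 18.4, 14.1 and 33.8 at 10 cGy against 54.9, 51.1 and 47.9 at 5 cGy. GM15510 arrays had brightness 112, 91.1 and 64.5 at 10 cGy against 19.5, 28.1 and 69.3 at 5 cGy. All 3 GM15036 arrays were dimmer at 10 cGy, whereas in GM15510 the doses overlapped. Each array was therefore scaled to a common trimmed mean of 50.9, and every level below is this scaled signal, while every change is a difference of log2(scaled signal + 4), 10 minus 5 cGy, which understates changes of dim genes. The log2 ratio of 3′ to 5′ GAPDH signal, a measure of RNA integrity, was 2.84 ± 0.119 at 10 cGy and 2.47 ± 0.162 at 5 cGy in GM15036 (SD, n = 3 each), and 2.45 ± 0.184 at 10 cGy and 2.36 ± 0.0394 at 5 cGy in GM15510. The ACTB ratio in GM15510 at 5 cGy was 3.43 on 1 array and 5.52 and 5.48 on the others. Correlations were 0.909 to 0.972 within a group, 0.914 to 0.95 between the doses of a line and 0.879 to 0.94 between lines. The range between doses thus lay inside the range within a group. No pair of arrays held identical values. Of the defining B cell markers, PAX5 ranged from 418 to 1190 on the 12 arrays, MS4A1 from 197 to 350, CD79B from 33.2 to 64.7 and CD79A from 13.1 to 50.6. The 11 defining markers of T cells, monocytes, erythroid cells and fibroblasts reached at most 36.2 (COL1A1), with CD14 and LYZ at or under 13.2 and 8.83. Levels of different probe sets are not compared, but signals of 36.2 or less are called dim below, a limit chosen after the values were seen, since no value here shows them to be above background. In bulk RNA, fewer cells of a type and less RNA per cell cannot be told apart.

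With the lines weighted equally, 1425 of 13329 probe sets (10.7%) passed the threshold of an adjusted p of 0.05 between 10 and 5 cGy, 637 higher and 788 lower at 10 cGy. Of 8101 genes, each read by 1 probe set, 4.99% were higher and 6.21% lower, and the median change was 0.017. In GM15036 alone 1617 probe sets (12.1%) passed, 613 higher and 1004 lower, and 4.14% of genes were higher and 7.91% lower. In GM15510 alone 1354 probe sets (10.2%) passed, 726 higher and 628 lower, and 5.65% of genes were higher and 4.26% lower. The change itself differed between the lines for 1661 probe sets (12.5%). As genes, 4.05% had a difference above 0, meaning GM15036 over GM15510, and 7.48% one below 0. Centring each unscaled array on its median in place of scaling left 345 probe sets in the combined result, 90 higher and 255 lower. In this setting, called median centring below, the 4 was added to unscaled signal, so it weighed more on dim arrays. Median centring turned the split to 59 higher and 3380 lower in GM15036, and to 2838 higher and 124 lower in GM15510. Centring the arrays again after scaling gave 324 higher and 725 lower combined, 150 and 2013 in GM15036, and 1214 and 252 in GM15510. Leaving out the 3 dimmest arrays, an alternative named below, removes replicates a and b of GM15036 at 10 cGy and replicate 1 of GM15510 at 5 cGy. GM15036 then has 1 array at 10 cGy, which is assumed to vary like the other groups, so in a call lost there dimness and fewer arrays cannot be told apart. Without a scale fixed by an outside standard, each change is therefore relative to the array's trimmed mean.

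Some probe sets passed in each line, in the same or in opposite directions. Of the probe sets that passed in each line, 140 moved in the same direction, 52 higher and 88 lower, which was 8.66% of the GM15036 calls and 10.3% of the GM15510 calls. Opposite directions were held by 201 probe sets, 12.4% of the GM15036 calls and 14.8% of the GM15510 calls, with 94 higher in GM15036 and lower in GM15510 and 107 the other way. The lines were measured on separate arrays, but each probe set had a common estimate of its spread from all 30 arrays. The calls in the lines are therefore not independent. Over all probe sets, 12.1% passed in GM15036 and 10.2% in GM15510 in either direction, which is not a like reference for shares held to a single direction. The genes printed below are some of those under the naming rule and, where said, others chosen after their values were seen.

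**Figure D1:**
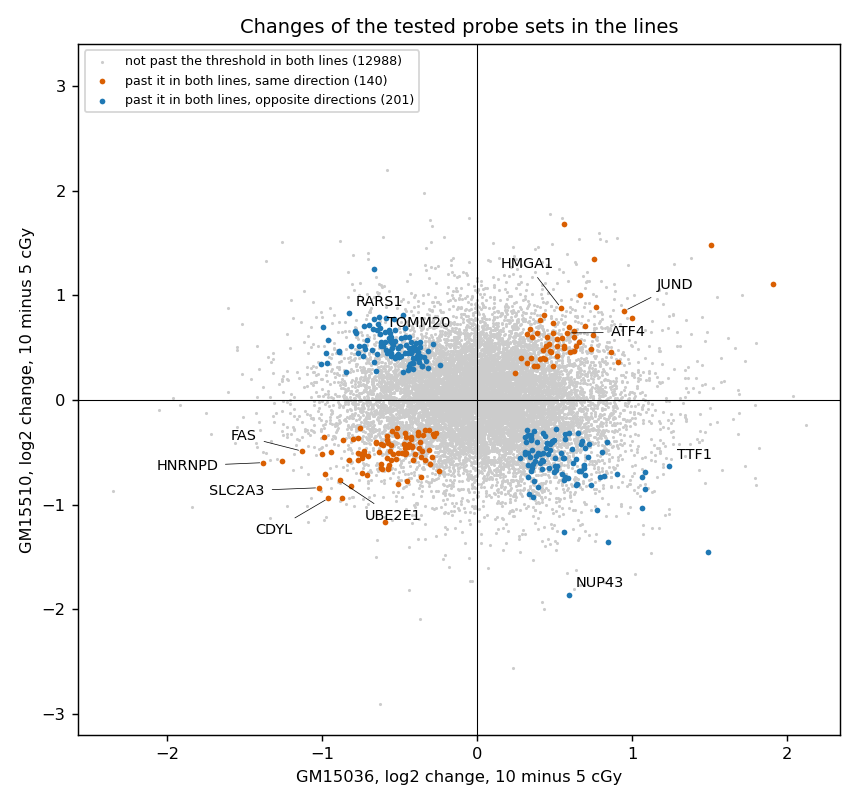
Change between 10 and 5 cGy in GM15036 (x axis, log2) and GM15510 (y axis, log2) for the 13329 tested probe sets, coloured by whether they passed the threshold in each line. The 140 probe sets that passed with the same direction lie in the lower left and upper right, and the 201 with opposite directions lie in the other corners.

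JUND, a subunit of the AP-1 transcription factor, had the smallest adjusted p among the genes printed here that were higher at 10 cGy in the combined result. Its signal was 226, 240 and 281 at 10 cGy against 124, 135 and 122 at 5 cGy in GM15036. In GM15510 it was 315, 302 and 324 at 10 cGy against 169, 172 and 175 at 5 cGy. The doses were fully separated in both lines, and the combined change was 0.90 (SE 0.0753, limma adjusted p = 9.84e-10). ATF4, the transcription factor of the integrated stress response, had 337, 367 and 375 at 10 cGy against 253, 236 and 229 at 5 cGy in GM15036. It had 261, 320 and 283 at 10 cGy against 203, 192 and 156 at 5 cGy in GM15510. No array overlapped between the doses, and the change was 0.61 (SE 0.0708, adjusted p = 4.57e-07). HMGA1, an architectural chromatin protein, had 225, 187 and 232 at 10 cGy against 161, 155 and 124 at 5 cGy in GM15036. GM15510 arrays had 248, 227 and 219 at 10 cGy against 118, 138 and 116 at 5 cGy. Again each 10 cGy array lay above each 5 cGy array, with a change of 0.71 (SE 0.0896, adjusted p = 1.71e-06). EIF4B, a translation initiation factor, and ATP2A2, the calcium pump of the endoplasmic reticulum, both rose by 0.64 (adjusted p = 1.72e-06 for each). Their other probe sets did not pass, at −0.19 and 0.23 for EIF4B and −0.29 and 0.01 for ATP2A2. Under median centring the combined calls of JUND, ATF4, HMGA1, EIF4B and ATP2A2 stayed. Their GM15036 changes then had adjusted p of 0.124, 0.934, 0.987, 0.828 and 0.909. HMGA1, EIF4B and ATP2A2 were chosen after their values were seen.

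Several genes that were higher in the combined result were dim or nearly so at 5 cGy, where the size of a change is uncertain. PPARD, a nuclear receptor for fatty acids, had 48.2, 86.8 and 59.4 at 10 cGy against 31.1, 13.5 and 17.4 at 5 cGy in GM15036. Its GM15510 values were 42.3, 31.1 and 28.3 at 10 cGy against 6.58, 9.26 and 13.3 at 5 cGy. The doses did not overlap (combined adjusted p = 0.000712), although another PPARD probe set gave −0.15. YIPF2, a membrane protein of the Golgi, had 65.6, 77.6 and 57.7 at 10 cGy against 30.1, 36.9 and 27.6 at 5 cGy in GM15036. In GM15510 it had 58.9, 60.4 and 53.9 at 10 cGy against 35.4, 35.6 and 25.6 at 5 cGy. The doses were apart in each line (adjusted p = 8.37e-05), with another probe set at −0.06. The folate receptor FOLR1 passed combined (adjusted p = 0.000348) and in GM15036, but not in GM15510 (adjusted p = 0.192). SPRY4, an inhibitor of growth factor signalling, had 33.3, 26.2 and 21 at 10 cGy against 11.5, 12.7 and 17.2 at 5 cGy in GM15036. In GM15510 it had 12.2, 14 and 24.5 at 10 cGy against 6.77, 0.917 and 1.75 at 5 cGy. All these signals were dim, and SPRY4 passed combined (adjusted p = 0.00639) but not in GM15036 (adjusted p = 0.242). The apoptosis inhibitor BCL2L1 was dim on all 12 arrays, at 9.08 to 30.9 at 10 cGy and 1.78 to 12.1 at 5 cGy, and had a combined adjusted p of 0.00502, with another probe set at −0.62 that did not pass. HIPK2, a kinase that acts on p53, the ubiquitin ligase subunit DET1, the protease inhibitor CSTB and the calcium-binding protein S100A13 passed combined, with adjusted p of 0.003, 0.00687, 0.0167 and 0.00554. Each of these 4 passed in 1 line only, with adjusted p in the other line of 0.11 for HIPK2 and 0.102 for S100A13 in GM15036, and of 0.233 for DET1 and 0.61 for CSTB in GM15510. Without the 3 dimmest arrays BCL2L1, HIPK2, DET1, CSTB and S100A13 had adjusted p of 0.0885, 0.0709, 0.162, 0.247 and 0.156. CSTB also lost its call without either of 2 GM15036 arrays, replicate b at 10 cGy and replicate c at 5 cGy, with an adjusted p of up to 0.0671. A second HIPK2 probe set gave 0.06 and did not pass.

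UBE2E1, a ubiquitin-conjugating enzyme, had the smallest adjusted p of the combined result among the genes printed here. Its signal was 230, 241 and 209 at 10 cGy against 412, 429 and 427 at 5 cGy in GM15036. In GM15510 it was 483, 544 and 467 at 10 cGy against 813, 845 and 893 at 5 cGy. All 6 arrays at 10 cGy lay below the 5 cGy arrays of their line, and the change was −0.83 (SE 0.0619, adjusted p = 1.32e-10). CDYL, a chromodomain corepressor, had 71.8, 73.0 and 82.5 at 10 cGy against 168, 151 and 137 at 5 cGy in GM15036. It had 101, 74.6 and 88.7 at 10 cGy against 172, 184 and 160 at 5 cGy in GM15510. The doses were separated in each line with a change of −0.95 (SE 0.109, adjusted p = 3.91e-07), while 2 other probe sets did not pass, at 0.24 and −0.49. TAF1D, a subunit of the RNA polymerase I selectivity factor, fell by 0.63 on the log2 scale (adjusted p = 4.03e-06). PRDX4, a peroxiredoxin of the endoplasmic reticulum, fell by 0.39 on the log2 scale (adjusted p = 3.6e-06). HNRNPD, which binds AU-rich RNA, fell by 0.99 on the log2 scale (adjusted p = 2.53e-07), but its 4 other probe sets lay between −0.06 and 0.14 in the combined result and did not pass. One of these passed in opposite directions in the lines, with −0.59 in GM15036 (adjusted p = 2.38e-05) and 0.48 in GM15510 (adjusted p = 0.000578). The zinc finger gene ZNF432 fell by 0.87 on the log2 scale (adjusted p = 0.00201). The crosslink repair nuclease DCLRE1A had a change of −0.85 (adjusted p = 0.00265) and ITFG1 one of −0.84 (adjusted p = 0.000353). These 2 calls ended at an adjusted p of 0.0546 for DCLRE1A when the 12 compared arrays were fitted alone, and 0.0526 for ITFG1 (−0.56) without the 3 dimmest arrays.

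Among genes whose combined call passed and whose arrays did not overlap in either line, 131 were higher and 179 lower at 10 cGy. Over all 8101 genes, 1.94% had arrays apart with higher values in both lines and 2.47% with lower values, called or not. These genes were chosen for 10 cGy lying beyond 5 cGy in both lines, which favours either dose as an extreme, so nothing is read from the shares that follow. In the mean courses over 1, 2.5, 5, 7.5 and 10 cGy, 10 cGy was the extreme of the 5 doses in both lines for 64 of the 131 higher genes (48.9%) and 89 of the 179 lower genes (49.7%). For 50 higher and 32 lower genes, 5 cGy was the opposite extreme in both lines. The lines differed in where 7.5 cGy lay. The choice of genes used these arrays only through the spread, the scaling and the choice of probe sets. The positions are set against the 5 and 10 cGy means on which the genes were chosen, and no share over all genes is given. In GM15036 the 7.5 cGy mean was nearer to 10 than to 5 cGy for 72 higher genes (55%) and 105 lower genes (58.7%). In GM15510 this held for 39 higher (29.8%) and 39 lower genes (21.8%), and 79 lower genes (44.1%) had a 7.5 cGy mean at or above the 5 cGy mean. Brightness at 7.5 cGy was 32.4 ± 4.73 in GM15036 and 67.7 ± 21.7 in GM15510 (SD, n = 3 each), and its part in these positions was not tested. JUND averaged 175, 179, 127, 211 and 249 from 1 to 10 cGy in GM15036 and 212, 171, 172, 155 and 313 in GM15510. Its GM15510 course was thus within 155 to 212 up to 7.5 cGy and stood above that range at 10 cGy only. CDYL averaged 100, 83.2, 152, 124 and 75.8 from 1 to 10 cGy in GM15036 and 182, 202, 172, 199 and 88.2 in GM15510. UBE2E1 averaged 485, 386, 422, 314 and 227 in GM15036 and 923, 548, 850, 839 and 498 in GM15510. The GM15510 mean of UBE2E1 at 2.5 cGy was therefore close to that at 10 cGy, so this gene did not follow dose in that line.

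**Figure D2:**
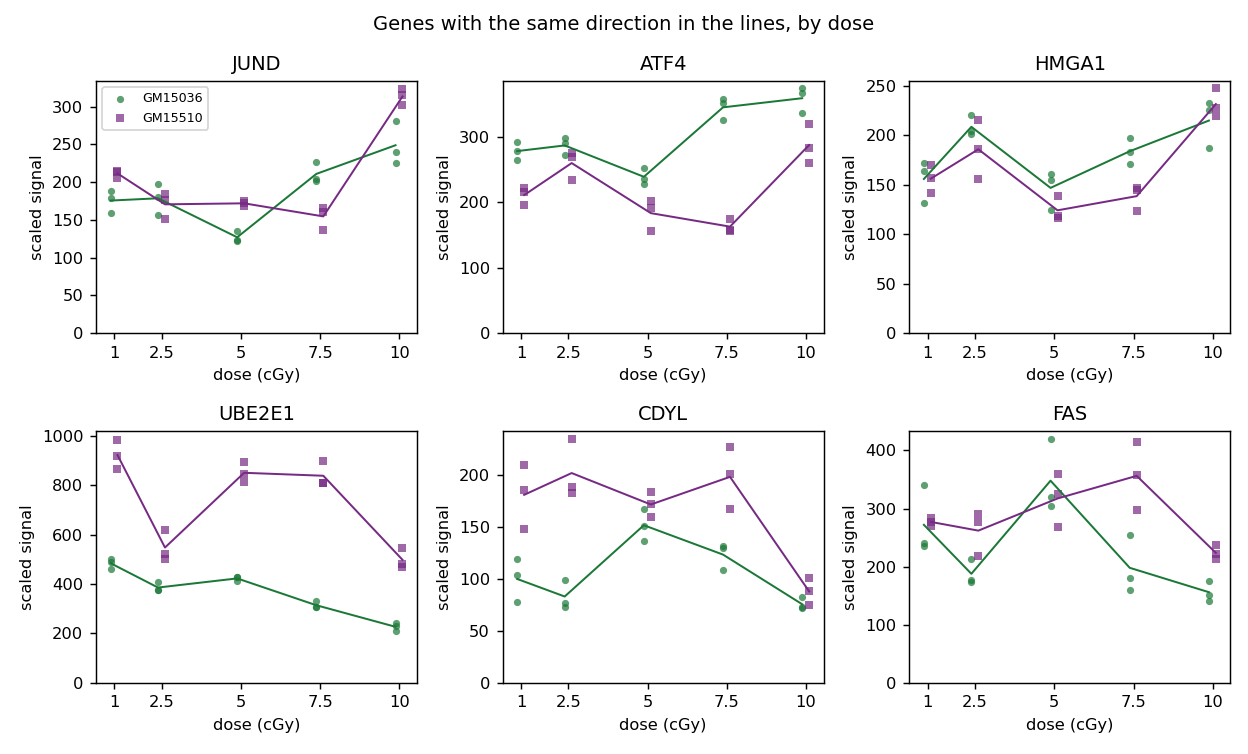
Scaled signal (y axis) against dose in cGy (x axis, true scale) for JUND, ATF4, HMGA1, UBE2E1, CDYL and FAS. Points are single arrays, lines join the means of 3 arrays, green circles are GM15036 and purple squares GM15510, and in each panel the 10 cGy arrays lie on one side of the 5 cGy arrays of their line.

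The glycolysis and hypoxia genes that passed in the combined result were all lower at 10 cGy. None of the 33 measured genes of this list was higher and 12 were lower in the combined result, with a list median of −0.19, against 6.21% of all genes lower and a median of 0.017. The brightness of the arrays differed between the doses as given above, and with brightness as a covariate 13 genes were lower in the combined result, in which the brightness differences of the lines oppose each other. Median centring left 7 lower, and leaving out the 3 dimmest arrays 6, while leaving out single arrays left 8 to 12. In GM15036 alone 11 were lower and none higher, and with the covariate 8 were lower. In GM15510 4 were lower and 2 higher, and with the covariate 4 were lower and 1 higher. The list median was −0.19 in GM15036 and −0.039 in GM15510, against 0.036 and 0.010 over all genes. Of all genes, 7.91% were lower in GM15036, and 4.26% were lower and 5.65% higher in GM15510.

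SLC2A3, the glucose transporter GLUT3, had 42.7, 66.3 and 71.0 at 10 cGy against 129, 105 and 137 at 5 cGy in GM15036. GM15510 arrays gave 37.3, 39.4 and 19.6 at 10 cGy against 73.1, 56.7 and 47.8 at 5 cGy. The doses were apart in both lines and the change was −0.93 (SE 0.163, adjusted p = 0.000197), with 2 other probe sets at −0.19 and −0.20 that did not pass. ENO1, the enolase of glycolysis, had 403, 544 and 473 at 10 cGy against 968, 927 and 1007 at 5 cGy in GM15036. In GM15510 it had 948, 988 and 1010 at 10 cGy against 875, 915 and 823 at 5 cGy. GM15036 was far lower at 10 cGy, with a change of −1.04 (SE 0.0919, adjusted p = 4.45e-09), while GM15510 stood at 0.17 (adjusted p = 0.273). P4HA1, a collagen prolyl hydroxylase, had changes of −0.79 in GM15036 (adjusted p = 9.41e-07) and 0.02 in GM15510. KDM3A, a histone demethylase induced by hypoxia, had changes of −0.81 in GM15036 (adjusted p = 2.45e-05) and −0.09 in GM15510. The combined calls of ENO1, P4HA1 and KDM3A, at −0.43, −0.39 and −0.45, were lost when only the 12 compared arrays were fitted. Their adjusted p was then 0.165, 0.0974 and 0.0751, in a fit without a term for a line difference. ADM, a vasodilator peptide, was lower in GM15510, with −0.77 (adjusted p = 0.000659, and 0.113 under median centring), and stood at −0.02 in GM15036. The growth factor VEGFA had −0.06 in GM15036 and −0.50 in GM15510 (adjusted p = 0.00619). VEGFA lost its GM15510 call without replicate 3 at 10 cGy (adjusted p = 0.0758) and under median centring (adjusted p = 0.815). Its 2 other probe sets had combined changes of 0.51 and −0.42 and did not pass. A second ENO1 probe set gave −0.31 combined and did not pass.

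GAPDH, a glycolytic dehydrogenase, fell in both lines, with −0.28 in GM15036 (adjusted p = 0.0368) and −0.35 in GM15510 (adjusted p = 0.00893), and its 2 other probe sets fell by 0.42 and by 0.46 on the log2 scale in the combined result. Under median centring the GM15510 change of GAPDH turned to 0.12, and single arrays left out ended both calls within a line, with adjusted p of up to 0.156 in GM15036 and 0.0634 in GM15510. LDHA, the lactate dehydrogenase subunit, had a combined change of −0.32 (adjusted p = 0.00591), which became −0.19 (adjusted p = 0.199) without the 3 dimmest arrays. The mitophagy receptor BNIP3 had −0.56 (adjusted p = 0.00109), with another probe set at 0.19 that did not pass. BNIP3L (−0.34), PGK1 (−0.25), VEGFA (−0.28) and PGAM1 (−0.24) lost their combined calls without 6, 7, 6 and 10 of the 12 arrays taken out in turn, with adjusted p of up to 0.0826, 0.127, 0.128 and 0.151. Of the 3 other PGK1 probe sets, 2 were lower, at −0.38 and −0.39, and the other, at 0.12, did not pass. A second BNIP3L probe set gave −0.11 and did not pass. GAPDH, LDHA, BNIP3L, ADM, PGK1, VEGFA and PGAM1 were named after their values were seen.

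**Figure D3:**
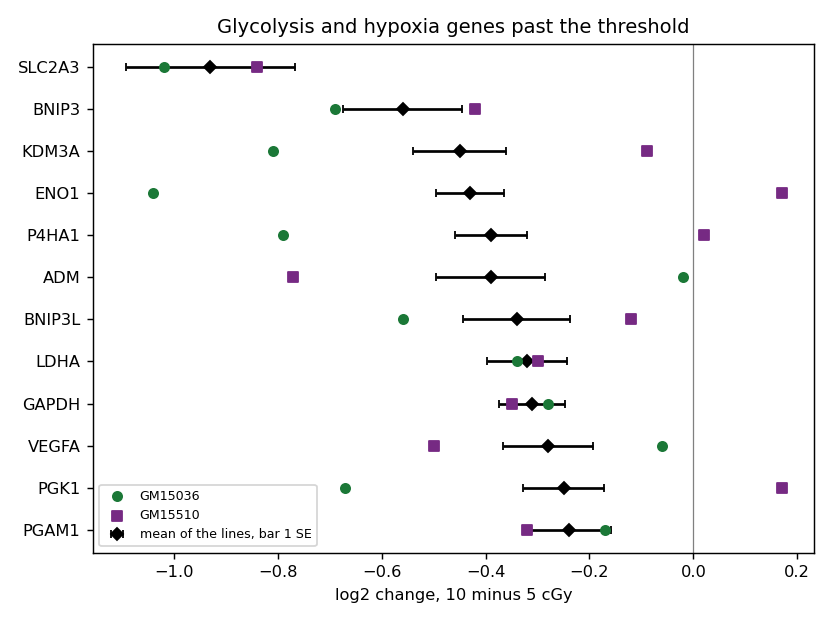
Change between 10 and 5 cGy (x axis, log2) of the 12 glycolysis and hypoxia genes that passed the threshold in the combined result, with the mean of the lines as a black diamond (bar, 1 SE), GM15036 as a green circle and GM15510 as a purple square. All diamonds lie below 0, while ENO1, PGK1 and P4HA1 lie below 0 in GM15036 only, with GM15510 at 0.17, 0.17 and 0.02.

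The promoters of 3 of these genes are shown because they hold the core letters of the hypoxia-response element, ACGTG or GCGTG on either strand, which capitals mark. The sequences are the 250 bases before the RefSeq start, read 5′ to 3′ on the gene's strand in assembly GRCh38.p14. ENO1 is at chr1:8878687-8878936 on the minus strand, KDM3A at chr2:86441121-86441370 on the plus strand and P4HA1 at chr10:73096867-73097116 on the minus strand.
ENO1: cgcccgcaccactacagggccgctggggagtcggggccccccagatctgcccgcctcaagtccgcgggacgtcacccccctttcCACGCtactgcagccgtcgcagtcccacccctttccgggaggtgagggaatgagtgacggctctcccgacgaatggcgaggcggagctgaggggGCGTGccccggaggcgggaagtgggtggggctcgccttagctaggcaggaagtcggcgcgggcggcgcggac
KDM3A: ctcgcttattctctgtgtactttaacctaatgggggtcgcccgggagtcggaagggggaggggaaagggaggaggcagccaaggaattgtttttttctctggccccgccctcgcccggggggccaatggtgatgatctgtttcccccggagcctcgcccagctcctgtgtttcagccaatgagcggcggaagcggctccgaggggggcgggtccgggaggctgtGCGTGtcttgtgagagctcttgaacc
P4HA1: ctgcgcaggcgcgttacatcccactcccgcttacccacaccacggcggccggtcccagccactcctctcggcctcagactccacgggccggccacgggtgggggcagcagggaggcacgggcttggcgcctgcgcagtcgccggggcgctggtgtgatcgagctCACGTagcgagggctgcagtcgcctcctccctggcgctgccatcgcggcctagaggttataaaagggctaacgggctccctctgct
The core was found in 8 of the 9 lower genes that had a promoter sequence (88.9%), in 18 of the 29 measured list genes that had one (62.1%) and in 43.1% of 27305 promoters of the same length. A match is a description of these letters and not a site of binding.

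Several genes of G2/M and mitosis were lower at 10 cGy. Of 49 measured, 2 were higher and 11 lower in GM15036, with a median of −0.21 against 0.036 over all genes. In GM15510 3 were higher and 3 lower, with a median above 0, at 0.067 against 0.010 over all genes. In the combined result 3 were higher and 8 lower, and the line difference passed with GM15036 lower for 15 and higher for 1. Of all genes, 4.14% were higher and 7.91% lower in GM15036, 5.65% and 4.26% in GM15510, and 4.99% and 6.21% combined. Their line difference was above 0 for 4.05% and below 0 for 7.48%. Brightness was lower at 10 cGy in GM15036. With it as a covariate none of the 49 were higher and 8 were lower in GM15036. The line difference then passed for 2 of the 49, both with GM15036 lower. The line differences of CCNB2, HMMR and DLGAP5 then had adjusted p of 0.42, 0.142 and 0.364. CCNB1, the cyclin of mitotic entry, had 163, 159 and 173 at 10 cGy against 350, 347 and 320 at 5 cGy in GM15036. GM15510 arrays had 474, 500 and 427 at 10 cGy against 481, 483 and 512 at 5 cGy. The doses were far apart in GM15036, with −1.02 (SE 0.0881, adjusted p = 2.97e-09), and overlapped in GM15510, with −0.08 (SE 0.0881, adjusted p = 0.668). The difference between the lines was −0.95 (adjusted p = 2.56e-06), and −0.73 (adjusted p = 0.0195) with brightness as a covariate. CCNB2, the other B-type cyclin, had 112, 109 and 136 at 10 cGy against 226, 211 and 219 at 5 cGy in GM15036. It had 286, 281 and 308 at 10 cGy against 385, 354 and 405 at 5 cGy in GM15510. It was lower on every 10 cGy array of both lines (−0.62, SE 0.0678, adjusted p = 2.17e-07), although its GM15510 change of −0.38 turned to 0.07 under median centring.

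HMMR, a spindle protein, had combined and GM15036 changes of −0.70 and −1.09 (adjusted p = 3.65e-07 and 4.15e-08). A second HMMR probe set gave −0.61 in the combined result (adjusted p = 1.31e-06). The spindle kinase TTK fell by 0.47 on the log2 scale and the condensin subunit NCAPD2 by 0.60. DLGAP5, a spindle assembly factor, had −0.39 in the combined result and −0.74 in GM15036. The kinetochore protein CENPF had −0.32 and the checkpoint kinase BUB1B −0.25 in the combined result. The calls of DLGAP5, CENPF and BUB1B were lost under 1 or more other settings, with adjusted p of up to 0.103, 0.102 and 0.239. The 3 mitosis genes that were higher combined were FOXM1 (0.46), a transcription factor of the late cell cycle, BIRC5 (0.43), the survivin gene, and ZWINT (0.27), a kinetochore protein. Without 8, 9 and 4 of the 12 arrays in turn these 3 lost the call, with adjusted p of up to 0.102, 0.182 and 0.0652. Other probe sets did not pass, at −0.04 for CENPF and at 0.09 and −0.13 for BIRC5. TTK, CENPF, NCAPD2, BUB1B, FOXM1, BIRC5 and ZWINT were named after their values were seen.

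Promoters of the B-type cyclins are shown because they carry the CCAAT box (CCAAT) and, in CCNB2, the CHR element (TTTGAA), both searched on either strand and marked in capitals. CCNB1 is at chr5:69166900-69167149 and CCNB2 at chr15:59104896-59105145, both on the plus strand of GRCh38.p14 from RefSeq.
CCNB1: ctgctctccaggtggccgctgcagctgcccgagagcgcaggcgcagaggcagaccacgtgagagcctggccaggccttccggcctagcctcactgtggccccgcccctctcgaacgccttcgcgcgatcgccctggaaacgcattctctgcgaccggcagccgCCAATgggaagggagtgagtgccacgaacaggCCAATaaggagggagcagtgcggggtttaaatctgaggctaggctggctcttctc
CCNB2: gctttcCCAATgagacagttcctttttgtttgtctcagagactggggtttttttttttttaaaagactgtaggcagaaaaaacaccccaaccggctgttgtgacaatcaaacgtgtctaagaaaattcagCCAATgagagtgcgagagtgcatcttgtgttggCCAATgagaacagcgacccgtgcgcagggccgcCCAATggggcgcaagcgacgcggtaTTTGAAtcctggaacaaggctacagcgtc
Of the 7 lower mitosis genes with a promoter sequence, 5 held a CHR (71.4%) and 6 a CCAAT box (85.7%). Of the 42 measured mitosis genes with one, 23 held a CHR (54.8%) and 32 a CCAAT box (76.2%), against 13.6% and 33% of all promoters.

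Proteasome genes had 6 of 33 lower and none higher in the combined result, with a median of −0.062, against 6.21% of all genes lower, 4.99% higher and a median of 0.017. PSMD14, the deubiquitinase of the proteasome lid, had 644, 695 and 649 at 10 cGy against 896, 949 and 911 at 5 cGy in GM15036. Its GM15510 values were 874, 908 and 888 at 10 cGy against 1286, 1200 and 1105 at 5 cGy. All 10 cGy arrays lay below the 5 cGy arrays of their line (−0.45, SE 0.0528, adjusted p = 6.74e-07), although the GM15510 change turned to 0.04 under median centring. The core subunits PSMA7 (−0.39), PSMA5 (−0.38), PSMA3 (−0.28) and PSMB2 (−0.28) and the lid subunit PSMD12 (−0.29) also passed. Under median centring 1 of the 6 list calls was left, and PSMA7, PSMA3, PSMB2 and PSMD12 had adjusted p of 0.0583, 0.145, 0.172 and 0.2. PSMA5 had −0.25 (adjusted p = 0.305) without the 3 dimmest arrays. PSMD12 also lost its call without 3 of the 12 arrays (adjusted p of up to 0.0793). In GM15036 8 proteasome genes were lower and none higher, and with brightness as a covariate 5 were lower. In GM15510 1 was lower and 2 were higher. The list median was −0.23 in GM15036 and 0.11 in GM15510, so the list ran in opposite directions in the lines. The line difference passed for 9 of the 33, all with GM15036 lower, against 7.48% of all genes. Of all genes, 7.91% were lower in GM15036, and 4.26% were lower and 5.65% higher in GM15510. Second probe sets of PSMA7, PSMB2 and PSMD12 gave −0.05, −0.03 and −0.17 and did not pass. PSMA7, PSMA5 and PSMD12 were named after their values were seen.

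The list of endoplasmic reticulum stress and amino acid response genes had 1 of 38 higher, ATF4, and 6 lower, against 4.99% and 6.21% of all genes. HSPA5, the chaperone BiP, had 1286, 1282 and 1179 at 10 cGy against 1577, 1488 and 1570 at 5 cGy in GM15036. GM15510 arrays gave 1186, 1182 and 1132 at 10 cGy against 1915, 1746 and 1695 at 5 cGy. The doses were separated in each line (−0.46, SE 0.0578, adjusted p = 1.71e-06). XBP1, the transcription factor of the unfolded protein response, had −0.36 and SEL1L, a subunit of the degradation complex of the endoplasmic reticulum, −0.34. SEL1L was lower in GM15036 only (−0.77, adjusted p = 9.38e-07, against 0.09 in GM15510), and the lines differed by −0.87 (adjusted p = 4.12e-05). Its 3 other probe sets had combined changes of 0.03, −0.13 and 0.15 and did not pass. GARS1, the glycyl-tRNA synthetase, had −0.26 and MTHFD2, a mitochondrial folate enzyme and target of ATF4, −0.24, and both were named after their values were seen. VEGFA was the 6th member. XBP1, SEL1L, GARS1 and MTHFD2 lost their calls under at least 1 setting, with adjusted p of up to 0.0744, 0.184, 0.237 and 0.195. Median centring left 2 lower genes of the list and leaving out the 3 dimmest arrays 3.

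Immediate-early genes had 4 of 21 higher and 1 lower in the combined result, with a median of 0.16 against 0.017 over all genes. Besides JUND the higher genes were IER2, IER3 and ZFP36. Over all genes 4.99% were higher and 6.21% lower. In GM15036 alone 1 was higher and 1 lower, and in GM15510 alone 6 were higher and 1 lower. Of all genes, 4.14% were higher in GM15036 and 5.65% in GM15510. IER2, a nuclear immediate-early protein, had 99.0, 152 and 116 at 10 cGy against 114, 120 and 94.7 at 5 cGy in GM15036. In GM15510 it had 157, 154 and 168 at 10 cGy against 77.9, 66.3 and 81.0 at 5 cGy. The doses overlapped in GM15036 and were apart in GM15510 (1.05, adjusted p = 0.000118), and the lines differed by −0.92 (adjusted p = 0.012, and 0.0511 with brightness as a covariate). IER3, an apoptosis regulator, had 0.28 in GM15036 and 0.64 in GM15510 (adjusted p = 0.00108). ZFP36, which degrades AU-rich messages, had 0.23 in GM15036 and 0.70 in GM15510 (adjusted p = 0.00683, and 0.0501 without replicate 2b at 5 cGy). The combined calls of IER3 and ZFP36 were lost under median centring, at adjusted p of 0.0947 and 0.095. EGR3, a zinc finger factor, had −0.46, which 8 of the 12 arrays taken out in turn ended (adjusted p of up to 0.122). NF-kB targets had 4 of 29 higher and none lower: IER3, the apoptosis inhibitor BCL2A1 (0.54), the NF-kB subunit REL (0.59) and the NF-kB inhibitor TNIP1 (0.28). The share of all genes that were higher was 4.99%. Within the lines 2 NF-kB targets were higher and 1 lower in GM15036, and 1 was higher in GM15510. REL and TNIP1 lost the call without 8 and 4 of the 12 arrays (adjusted p of up to 0.125 and 0.104). BCL2A1 reached an adjusted p of 0.0512 when the 12 arrays were fitted alone. A second REL probe set gave −0.35 and did not pass. ZFP36, EGR3 and REL were named after their values were seen.

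Of the 16 measured genes of the radiation-response panel, 3 passed. BAX was higher and FAS and PPM1D were lower in the combined result, in which 4.99% of all genes were higher and 6.21% lower. FAS, the death receptor and p53 target, had 140, 152 and 176 at 10 cGy against 304, 320 and 420 at 5 cGy in GM15036. GM15510 arrays had 213, 237 and 221 at 10 cGy against 268, 325 and 359 at 5 cGy. FAS was lower on all 10 cGy arrays of both lines (−0.81, SE 0.111, adjusted p = 6.97e-06), and its 3 other probe sets also passed combined, at −0.33, −0.59 and −0.68. The probe set at −0.33 had −0.79 in GM15036 but 0.13 (adjusted p = 0.592) in GM15510. In GM15510 alone the FAS call was lost under 6 of 14 settings (adjusted p of up to 0.915, median centring). It was also lost without 5 of the 12 arrays (up to 0.173). BAX, the pore-forming apoptosis protein, had 95.4, 82.1 and 147 at 10 cGy against 97.6, 89.6 and 112 at 5 cGy in GM15036. It had 99.9, 107 and 94.5 at 10 cGy against 44.7, 55 and 75.8 at 5 cGy in GM15510, where alone the doses were apart. The combined BAX change of 0.42 lost its call without 3 of the 12 arrays (GM15036 replicate c at 10 cGy and b at 5 cGy, GM15510 replicate 1 at 5 cGy, adjusted p of up to 0.0767), and a second probe set gave 0.46 (adjusted p = 0.054). PPM1D, the phosphatase that turns p53 signalling off, had −0.39, lost without 8 of the 12 arrays (adjusted p of up to 0.121). CDKN1A, the cell cycle inhibitor p21, had 231, 232 and 245 at 10 cGy against 193, 213 and 195 at 5 cGy in GM15036. Its GM15510 values were 157, 178 and 181 at 10 cGy against 225, 141 and 157 at 5 cGy. Its combined change was 0.12 (adjusted p = 0.531). The p53 target list had 2 of 22 higher, BAX and the BH3-only gene PMAIP1 (0.31), and 2 lower, FAS and PPM1D. For this list too the shares of all genes were 4.99% and 6.21%. PMAIP1, named after its values were seen, did not pass without 8 of the 12 arrays (adjusted p of up to 0.123), and its second probe set gave −0.23.

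Apoptosis genes had 5 of 29 higher and 4 lower in the combined result, against 4.99% and 6.21% of all genes. The higher ones were BCL2L1, BCL2A1 and MCL1, which inhibit apoptosis, and BAX and PMAIP1, which promote it. MCL1 had 116, 131 and 111 at 10 cGy against 108, 117 and 106 at 5 cGy in GM15036. GM15510 arrays gave 165, 214 and 233 at 10 cGy against 81.9, 115 and 87.1 at 5 cGy. Only GM15510 had the doses apart, with 1.08 (SE 0.142, adjusted p = 3.69e-06), and the lines differed by −0.97 (adjusted p = 0.00103). Its 3 other probe sets had combined changes of −0.24, 0.46 and 0.21, of which 0.46 passed. The lower ones were FAS, BNIP3, BNIP3L and CASP8. CASP8, the caspase of death receptor signalling, had 13.4, 22.6 and 11 at 10 cGy against 41.0, 42.3 and 53.4 at 5 cGy in GM15510, where no array overlapped (adjusted p = 7.25e-05) and the 10 cGy levels were dim. In GM15036 its change was −0.08 (adjusted p = 0.874).

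NUP43, a nuclear pore subunit, differed most between the lines among the genes printed here. It had 540, 526 and 494 at 10 cGy against 337, 338 and 356 at 5 cGy in GM15036. In GM15510 it had 116, 122 and 97.8 at 10 cGy against 394, 440 and 408 at 5 cGy. Every 10 cGy array was above 5 cGy in GM15036 (0.59) and below it in GM15510 (−1.86), and the line difference was 2.45 (SE 0.153, adjusted p = 8.01e-13). TTF1, the termination factor of RNA polymerase I, had 186, 199 and 158 at 10 cGy against 73.7, 63.0 and 87.2 at 5 cGy in GM15036. GM15510 arrays had 94.1, 79.6 and 82.1 at 10 cGy against 124, 165 and 116 at 5 cGy. The order of the doses turned between the lines, with a difference of 1.87 (adjusted p = 8.22e-08), although a second TTF1 probe set had −0.45 in GM15036 and 0.09 in GM15510. Median centring ended the GM15036 call of NUP43 (adjusted p = 0.928) and the GM15510 call of TTF1 (adjusted p = 0.46), but not their line differences.

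Other named genes had a line difference below 0, and they are of mixed function. RARS1, the arginyl-tRNA synthetase, had 183, 206 and 174 at 10 cGy against 343, 322 and 340 at 5 cGy in GM15036. Its GM15510 values were 735, 425 and 691 at 10 cGy against 401, 323 and 292 at 5 cGy. The changes were −0.83 in GM15036 and 0.83 in GM15510, and the line difference was −1.66 (adjusted p = 6.33e-05). DLD, the dihydrolipoamide dehydrogenase of mitochondria, had −0.97 in GM15036 and 0.44 in GM15510, with a line difference of −1.42 (adjusted p = 1.13e-08). TOMM20, an import receptor of mitochondria, had −0.63 in GM15036 and 0.63 in GM15510, with a line difference of −1.25 (adjusted p = 2.05e-08), but another probe set gave 0.10 and −0.11. ATP5F1B, a subunit of the ATP synthase, had −0.84 and 0.24, with a line difference of −1.09 (adjusted p = 4.58e-07). The endomembrane protein TM9SF2 had −1.38 in GM15036 (adjusted p = 1.67e-08) and 0.13 in GM15510. PRKDC, the catalytic subunit of the DNA-dependent protein kinase, had −0.56 in GM15036 and 0.60 in GM15510, with a line difference of −1.16 (adjusted p = 6.23e-06). PARP1, which senses DNA breaks, had −0.46 and 0.52, with a line difference of −0.98 (adjusted p = 0.000214). PRKDC has 2 other probe sets, whose line differences were 0.01 and 1.26 and did not pass. Each line difference given here also passed with brightness as a covariate, whereas the changes within a line ended for PRKDC (adjusted p = 0.0699 in GM15036 and 0.0513 in GM15510), PARP1 (0.109 and 0.071) and, in GM15510, DLD (0.0904). DLD, TOMM20 and PARP1 were chosen after their values were seen.

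**Figure D4:**
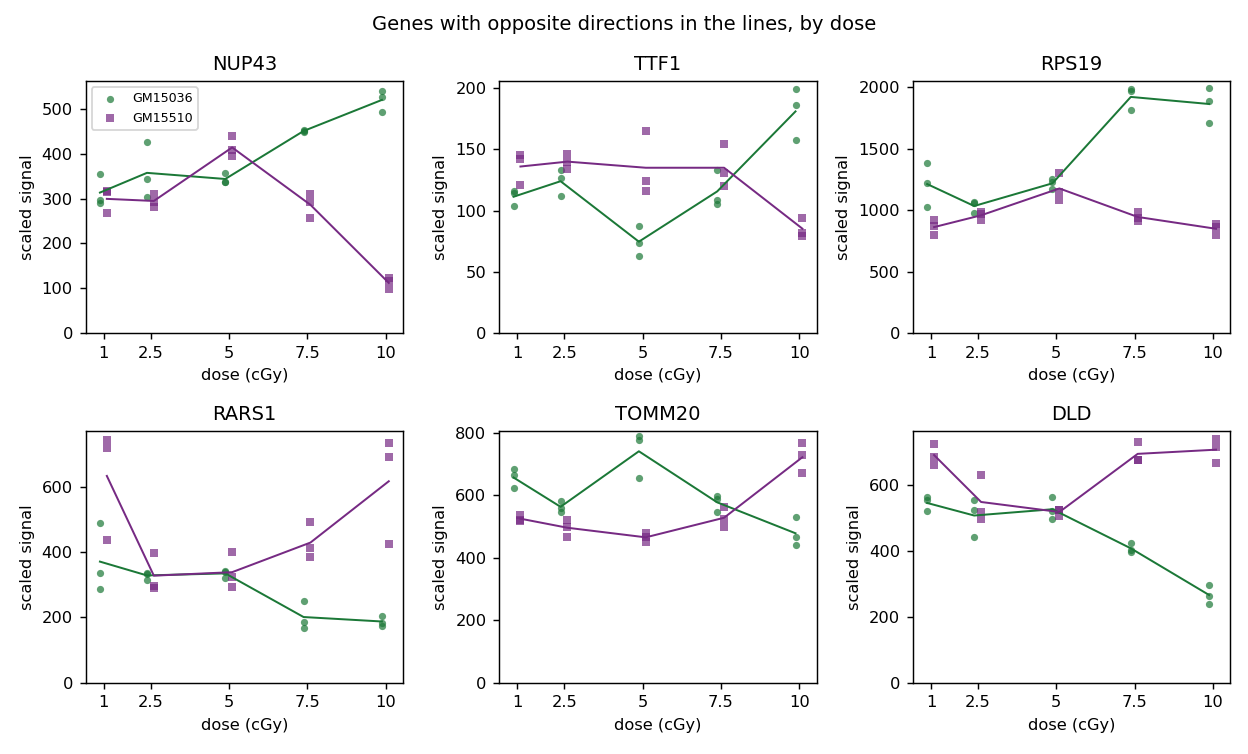
Scaled signal (y axis) against dose in cGy (x axis, true scale) for NUP43, TTF1, RPS19, RARS1, TOMM20 and DLD. Points are single arrays, lines join means of 3, green circles are GM15036 and purple squares GM15510, and between 5 and 10 cGy the lines run in opposite directions in each panel.

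Cytosolic ribosomal protein genes moved in opposite directions in the lines after scaling. Under median centring, where the 4 was added to unscaled signal, the list medians had the other sign, as had the medians of all probe sets. Of 52 measured, 27 were higher and 1 lower in GM15036, with a median of 0.33, and 4 were higher and 18 lower in GM15510, with a median of −0.23. The median of all genes was 0.036 in GM15036 and 0.010 in GM15510. Of all genes, 4.14% were higher and 7.91% lower in GM15036, and 5.65% and 4.26% in GM15510. In the list the line difference passed for 32 genes with GM15036 higher and 2 with GM15036 lower, against 4.05% and 7.48% of all genes. Under median centring, where the median change of all probe sets was −0.312 in GM15036 and 0.298 in GM15510, the list medians were −0.24 in GM15036 and 0.23 in GM15510. The counts under it were 0 higher and 8 lower in GM15036, and 14 higher and 0 lower in GM15510. With brightness as a covariate 9 were higher and 0 lower in GM15036 and 2 higher and 8 lower in GM15510. Without the 3 dimmest arrays, 15 were higher in GM15036 and 15 lower in GM15510.

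RPS19, a small subunit protein, had 1888, 1714 and 1992 at 10 cGy against 1229, 1256 and 1173 at 5 cGy in GM15036. GM15510 arrays gave 801, 862 and 884 at 10 cGy against 1080, 1300 and 1152 at 5 cGy. The doses were apart in both lines and in opposite order, and the line difference was 1.08 (SE 0.13, adjusted p = 9.29e-07). Its second probe set had 0.58 in GM15036 and 0.07 in GM15510. RPL24, a large subunit protein, had 0.67 in GM15036 and −0.42 in GM15510, and a second probe set had 0.42 and −0.66. RPS18 had 0.37 and −0.58, and RPL27 0.33 and −0.62, in GM15036 and GM15510. Centring the arrays again after scaling ended both GM15036 calls, with adjusted p of 0.428 for RPS18 and 0.564 for RPL27. Under median centring the line differences of RPS18 and RPL27 became −0.09 for each, and those of RPS19 and RPL24 had adjusted p of 0.921 and 0.845. RPL22, named like RPS18 after its values were seen, went against the list, with −0.34 in GM15036 and 0.41 in GM15510. Its 4 other probe sets did not follow it, with line differences of 1.04, 0.08, 0.25 and 1.01, of which 1.04 and 1.01 passed.

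**Figure D5:**
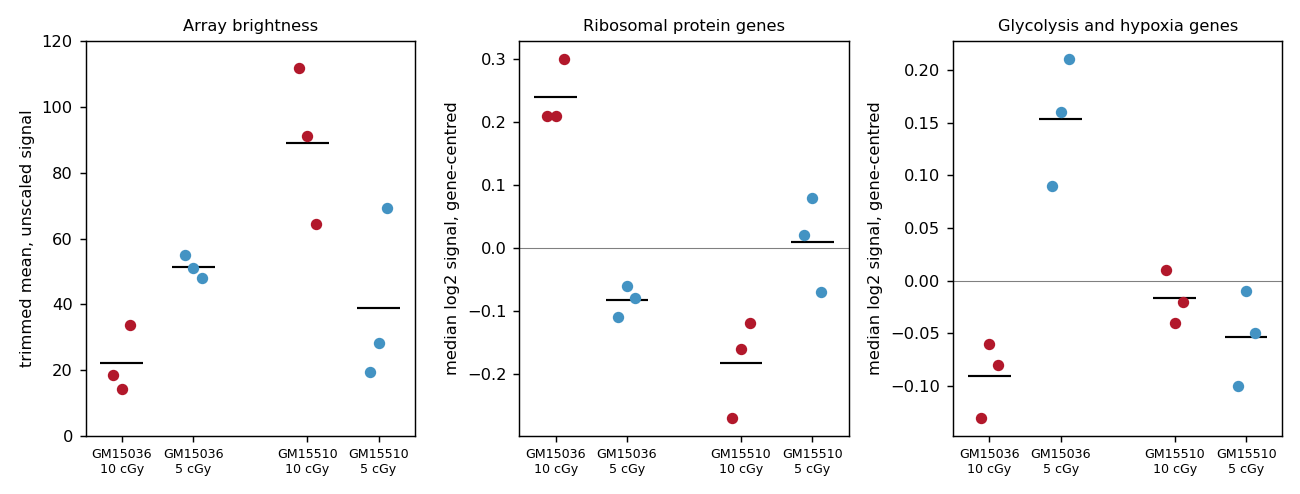
Array brightness (left, trimmed mean of the unscaled signal), and the median over the list of gene-centred log2 scaled signal for ribosomal protein genes (middle) and glycolysis and hypoxia genes (right), for each of the 12 arrays, with 10 cGy in red, 5 cGy in blue and bars at the means. Ribosomal protein medians are higher at 10 cGy in GM15036 (0.21, 0.21 and 0.30 against −0.11, −0.06 and −0.08) and lower in GM15510 (−0.27, −0.16 and −0.12 against 0.02, 0.08 and −0.07). Under median centring of unscaled signal the ribosomal list changes have the other sign in both lines, a sign that the median change of all probe sets shares. Glycolysis and hypoxia medians are lower at 10 cGy in GM15036 (−0.13, −0.06 and −0.08 against 0.09, 0.16 and 0.21). In GM15510 they overlap (0.01, −0.04 and −0.02 against −0.10, −0.01 and −0.05).

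B cell and antigen presentation genes were mixed. Of 26 measured B cell identity genes, 3 were higher and 2 lower in the combined result, against 4.99% and 6.21% of all genes. PAX5, the transcription factor that maintains B cell identity, had 1187, 1098 and 959 at 10 cGy against 557, 629 and 560 at 5 cGy in GM15036. In GM15510 it had 514, 594 and 504 at 10 cGy against 455, 418 and 574 at 5 cGy. It was higher on all 10 cGy arrays of GM15036 (0.89, SE 0.105, adjusted p = 3.8e-07), while the GM15510 arrays overlapped (0.16, adjusted p = 0.382). Under median centring the GM15036 change had an adjusted p of 0.201. MS4A1, the surface antigen CD20, was lower in both lines, with −0.29 in GM15036 (adjusted p = 0.0458, lost without 6 of the 12 arrays at up to 0.14) and −0.55 in GM15510 (adjusted p = 0.000251). Its GM15036 call was also lost under 8 of 14 settings, and its GM15510 call under median centring (adjusted p = 0.731). The summed signal of the B cell list was 5540 to 6169 at 10 cGy and 5090 to 5234 at 5 cGy in GM15036. In GM15510 it was 4676 to 4858 at 10 cGy and 4229 to 4434 at 5 cGy, so the arrays were apart in each line. The median change of the list was −0.15 in GM15036 and 0.19 in GM15510, so in GM15036 the median and the sum differ in direction, and PAX5 alone averaged 1081 at 10 cGy and 582 at 5 cGy there. The summed signal of T and NK cell markers was 309 to 349 at 10 cGy and 232 to 304 at 5 cGy in GM15036. In GM15510 it was 289 to 328 at 10 cGy and 239 to 318 at 5 cGy, so these sums were apart in GM15036 and overlapped in GM15510, and their part in the result was not tested. Antigen presentation genes had 1 of 24 higher and 5 lower in the combined result, against 4.99% and 6.21% of all genes. HLA-DRA, the alpha chain of the class II molecule DR, had 73.7, 68.4 and 87.7 at 10 cGy against 195, 206 and 165 at 5 cGy in GM15036. GM15510 arrays had 230, 252 and 219 at 10 cGy against 199, 241 and 174 at 5 cGy. It was lower at 10 cGy in GM15036 alone (−1.26, adjusted p = 9.13e-09), and the lines differed by −1.46 (adjusted p = 3.6e-07). A second HLA-DRA probe set gave −1.16 in GM15036 and −0.18 in GM15510.

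Some probe sets passed in 1 line with dim signals at 1 of the doses, so no size is given for them. The transcription factor ELF1 had 17.2, 1.01 and 19.8 at 10 cGy against 63.0, 51.0 and 36 at 5 cGy in GM15036 (adjusted p = 4.95e-05), while its other probe set rose by 0.74 there (adjusted p = 0.0121), so its direction is not settled. TRIM25, a ubiquitin ligase, had 3.05, 3.91 and 4.32 at 10 cGy against 32.7, 32.6 and 22.6 at 5 cGy in GM15510 (adjusted p = 0.00131), all of them dim. SPN, the leukosialin CD43, had 20.9, 22.4 and 0.512 at 10 cGy against 157, 52.6 and 135 at 5 cGy in GM15510 (adjusted p = 6.24e-05). The other SPN probe sets had 0.26 and 0.76 there and did not pass. QRSL1, a mitochondrial amidotransferase subunit, had 24, 24.4 and 26.4 at 10 cGy against 2.47, 10.2 and 3.36 at 5 cGy in GM15510 (adjusted p = 0.000523), all dim, with another probe set at −0.27. In the other line these 4 genes did not pass.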

How the data were processed

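Messenger RNA was measured on 30 arrays, 3 for each of 2 lines at 5 doses, and 12 of them were compared here. Per the labels' protocols, total RNA was labelled by the 3′ in vitro transcription method of Affymetrix, and the design text names T7 amplification. The deposited values are linear signal intensities that the authors computed with MAS5, as the submitters' processing notes say, and the sources used here give no version or scaling target.

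Trimmed means (2 to 98 percent range) ran from 14.1 to 112, so each array was scaled to their mean, 50.9, and log2(value + 4) was taken. Of 22283 probe sets, 68 controls were left out and the brightest 60% of the rest, 13329, were tested. Symbols come from the platform annotation (19071 probe sets with 1 symbol, 1043 with several, 2169 with none), updated through gene IDs with RefSeq, which matched 19059. One probe set per gene gave 8101 genes.

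limma 3.58.1 in R 4.3.3 fitted the 10 groups of line and dose on all 30 arrays (20 residual and 12.3 prior degrees of freedom), with eBayes and an intensity trend, two-sided, and Benjamini-Hochberg adjustment over all tested probe sets at a threshold of 0.05. The combined change is the mean of the differences within the lines, which holds line as a block, and the line difference is GM15036 minus GM15510. The script was tested on simulated data. No set test was run. Precision is limited by the number of arrays.

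The rule names the 10 highest and 10 lowest combined changes whose arrays do not overlap and share a sign, 8 of each per line, 8 of each with opposite signs, up to 4 members of each of 27 lists and a radiation panel. It covers 160 genes, of which 68 are printed with 31 others. The comparison, lists and alternatives were chosen with earlier results of these data known. Same-numbered replicates did not deviate together (correlations −0.061 to 0.0027), so they were not treated as pairs. Alternatives covered normalization, pseudocount, filter, variance model, array weights, brightness, the arrays fitted and each array left out.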

Additional observations from a re-analysis of the deposited data

Results flagged for a closer look

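The change between 10 and 5 cGy differed between GM15036 and GM15510 by the interaction test for 46 of the printed genes, and 26 of these differences also passed with array brightness as a covariate. Each value below is the GM15036 change minus the GM15510 change on the log2 scale, and no explanation was tested.

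The differences that passed both with and without the covariate were above 0 for NUP43 (2.45), TTF1 (1.87), RPL24 (1.09), RPS19 (1.08), RPS18 (0.95), RPL27 (0.94) and PAX5 (0.72). They were below 0 for RARS1 (−1.66), TM9SF2 (−1.51), HLA-DRA (−1.46), DLD (−1.42), TOMM20 (−1.25), ENO1 (−1.21), CCT7 (−1.20), PRKDC (−1.16), ATP5F1B (−1.09), PARP1 (−0.98), MCL1 (−0.97), CCNB1 (−0.95), SEL1L (−0.87), PGK1 (−0.84), CCND2 (−0.82), P4HA1 (−0.81), HSP90AB1 (−0.76), CCT4 (−0.68) and XRCC6 (−0.63). Median centring turned PAX5 to −0.30, RPS18 to −0.09 and RPL27 to −0.09.

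The differences that passed only without the covariate were above 0 for SPN (2.28), CASP8 (1.29) and ADM (0.75). They were below 0 for QRSL1 (−2.02), ELF1 (−1.97), ITFG1 (−1.11), IER2 (−0.92), PARP2 (−0.92), CYC1 (−0.90), PPM1D (−0.85), HNRNPD (−0.78), HMMR (−0.78), RPL22 (−0.75), KDM3A (−0.72), DLGAP5 (−0.70), BAX (−0.69), CCNB2 (−0.48), NDUFS1 (−0.47), PSMB2 (−0.41) and PSMA3 (−0.36). SPN, QRSL1 and ELF1 rest on dim signals, and their sizes are uncertain. With the covariate the BAX difference was 0.26 (adjusted p = 0.763) and that of ELF1 −0.35 (adjusted p = 0.864).

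Single arrays ended some of these calls. NDUFS1 lost it without 10 of the 12 arrays (adjusted p of up to 0.0928), BAX without 9 (0.17), PSMA3 without 7 (0.11), PSMB2 without 5 (0.111), SPN without 3 (0.0877), and HNRNPD (0.0689) and ITFG1 (0.0661) without 2 each. ADM lost it without GM15036 replicate b at 10 cGy (0.0644) and PPM1D without GM15510 replicate 2b at 5 cGy (0.0575).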

How the results depend on the processing

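The number of probe sets past the threshold was 1425 combined, 1617 in GM15036, 1354 in GM15510 and 1661 for the line difference. Median centring gave 345, 3439, 2962 and 5185 in that order, and centring after scaling 2657 for the line difference. With the 12 arrays fitted alone the combined count was 452. That fit had line and dose but no term for a line difference, so genes that oppose between the lines lose by construction. It thus changed both the arrays and the model. Brightness as a covariate gave 773 in GM15036, 689 in GM15510 and 463 for the line difference. Leaving out the 3 dimmest arrays, chosen after seeing the data, leaves 1 GM15036 array at 10 cGy, assumed to vary like the other groups. It gave 821 combined, 727 in GM15036 and 870 for the line difference. Every other setting that kept all arrays stayed within 1.5 times. Leaving out single arrays gave 1139 to 1340 combined, 1122 to 1664 in GM15036, 913 to 1409 in GM15510 and 1336 to 1704 for the line difference. With the replicate block the counts were 1384, 1557, 1293 and 1636. Replicate labels share only a number here.

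Of 258 gene results called, 103 held under every setting and every array left out, 153 were lost under at least 1 setting and 58 without at least 1 array. The brightness covariate turned the line difference of BAX to 0.26. Median centring turned the GM15510 changes of CCNB2 (0.07), PSMD14 (0.04), MTHFD2 (0.15), PRDX4 (0.19), GAPDH (0.12) and RPL24 (0.04), the GM15036 changes of RPS18 (−0.20) and RPL27 (−0.24), and the line differences of PAX5 (−0.30), ADM (−0.14), RPS18 (−0.09) and RPL27 (−0.09). The median change of all probe sets under it was −0.312 in GM15036, 0.298 in GM15510 and −0.626 for the line difference. With centring after scaling this median was −0.179, 0.148 and −0.353 in that order, smaller in size and of the same sign. Median centring used unscaled signal, where the added constant weighed more on dim arrays. How far this accounts for the turned changes was not tested.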

Other observations

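Several cytosolic chaperones were lower at 10 cGy in GM15036. Of 22 measured heat shock and chaperone genes, 7 were lower and none higher in GM15036, with a median of −0.23 against 0.036 over all genes, and leaving out single arrays left 5 to 8 lower. In GM15510 none were lower and 3 higher, of which single arrays left 1 to 3. Of all genes, 7.91% were lower in GM15036 and 5.65% higher in GM15510. CCT4, a subunit of the chaperonin that folds actin and tubulin, had 469, 550 and 485 at 10 cGy against 812, 848 and 794 at 5 cGy in GM15036. GM15510 had 993, 1069 and 1046 at 10 cGy against 1030, 1149 and 979 at 5 cGy. The doses were apart in GM15036 (−0.70, adjusted p = 6.91e-07) and overlapped in GM15510 (−0.02, adjusted p = 0.928). HSP90AB1, the constitutive cytosolic HSP90, had −0.75 in GM15036 (adjusted p = 6.9e-06) and 0.01 in GM15510, and its second probe set had −0.61 and 0.55, neither of which passed, although their difference did (−1.15, adjusted p = 0.00956). CCT7, another chaperonin subunit, was lower in GM15036 (−0.53, adjusted p = 0.00233) and higher in GM15510 (0.67, adjusted p = 0.00029), but the GM15036 change had an adjusted p of 0.156 with brightness as a covariate. Without the 3 dimmest arrays, which leaves 1 GM15036 array at 10 cGy, it was −0.21 (adjusted p = 0.523). Mean array brightness was 22.1 at 10 cGy against 51.3 at 5 cGy in GM15036, and 89.1 at 10 cGy against 39.0 at 5 cGy in GM15510. With brightness as a covariate 5 of the list were lower in GM15036 and 1 was higher in GM15510.

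Respiratory chain and ATP synthase genes had 5 of 62 higher and 5 lower in the combined result, with 1 to 5 higher and 3 to 6 lower when single arrays were left out, so neither count stands clear of the 4.99% higher and 6.21% lower among all genes. In GM15036 4 were higher and 6 lower, with a median of 0.006. The members below are those of the naming rule. CYC1, cytochrome c1, had 97.1, 90.5 and 106 at 10 cGy against 190, 203 and 188 at 5 cGy in GM15036, where the doses were apart (−0.96, adjusted p = 3.38e-06), and −0.06 in GM15510. NDUFS1, a subunit of complex I, had −0.69 in GM15036 (adjusted p = 2.54e-05) and −0.22 in GM15510 (adjusted p = 0.233). In DNA repair 1 of 35 genes was higher and 4 were lower combined, with 2 to 5 lower when single arrays were left out. The shares of all genes were again 4.99% and 6.21%. XRCC6, the Ku70 subunit that binds broken ends, had −0.59 in GM15036 (adjusted p = 1.07e-05) and 0.04 in GM15510. PARP2, a second poly(ADP-ribose) polymerase, had −0.83 in GM15036 (adjusted p = 6.9e-06) and 0.09 in GM15510. Of its 2 other probe sets, 1 passed in GM15036 (−0.65) and the other did not (−0.36, adjusted p = 0.0601). Genes of G1/S and DNA replication had 2 of 46 higher and 4 lower combined, near the shares of all genes. CCND2, the cyclin D2, had 550, 558 and 626 at 10 cGy against 393, 340 and 287 at 5 cGy in GM15510, where the doses were apart (0.77, adjusted p = 7.35e-06). In GM15036 it had −0.05, and its 2 other probe sets did not pass in either line.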
